A study of Mus musculus with 6 samples.

Results

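Imprinted genes were followed in the neocortex of mouse embryos. They were 39 genes of 18 imprinted clusters, chosen by name, and all 39 matched 1 gene ID each among the 48709 gene IDs of the count files. Of these genes, 23 are known as expressed mainly from the paternal allele and 14 from the maternal allele, and 2 (Grb10 and Gnas) use different alleles for different promoters. They lie on 10 chromosomes, with 16 on chromosome 7 and 6 on chromosome 6.

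Rest_het denotes 3 embryos heterozygous for a Rest allele without exon 4, and WT denotes 3 wild-type embryos. Rest makes a DNA-binding protein that silences neuronal genes outside neurons. All 6 were C57BL/6 embryos at stage E15.5, and RNA was taken from the neocortex. The titles call the mutant libraries KO while their genotype is heterozygous, and the labels name separate mice without saying whether they shared a litter. The p-values below set the genotype difference against the spread between libraries of the same genotype. They take the embryos as independent, which the labels do not settle.

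Counts of the whole Rest gene, of which the deleted exon is a part, were 16.7, 19 and 18.6 CPM in the Rest_het libraries, against 21, 19.7 and 21.1 CPM in the WT libraries, with a log2 fold change of -0.19 (SE 0.10) and adjusted p 0.49 by edgeR. The groups differed in more than the Rest allele. Reads on a LacZ sequence were found only in WT libraries (0 in each Rest_het library, and 27, 51 and 43 in the WT libraries). Reads on a CRE-ERT2 sequence were found only in Rest_het libraries (10, 16 and 17 in the Rest_het libraries, and 0 in each WT library). The effects of the Rest allele and of any transgenes behind these reads on any gene below cannot be told apart. Reads assigned to genes numbered 17835117 to 18426652 in the Rest_het libraries and 19996943 to 20753653 in the WT libraries. Of the markers of neocortical neurons and progenitors, 12 of 12 passed the filter on low counts, so the labelled tissue had its defining genes. Their sum was 1896, 1798 and 1952 CPM in the Rest_het libraries, against 2234, 2122 and 1956 CPM in the WT libraries, lower in every Rest_het library than in any WT library, with 0 of the 12 called.

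Imprinted genes are expressed from 1 parental copy because methylation marks set in the egg or the sperm persist after fertilisation at imprinting control regions. KRAB zinc finger proteins such as ZFP57 bind the methylated copy and recruit TRIM28 to keep the mark. Many of these genes regulate fetal growth, and in the brain several act in neuron migration, hypothalamic function and behaviour. The counts are gene totals from an inbred strain, so they do not tell the paternal from the maternal copy, and a change of total level is not a change of imprinting.

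Promoters of these genes were examined for CpG content and for short motifs. RefSeq promoter windows (GRCm38.p6, from 250 bases before to 50 bases after a start) were used for 32 of the 39 genes, 47 distinct windows in all, of which Snrpn and Snurf share 1 and Mest has a pair of nearly identical ones. These windows held a median of 15 CpG dinucleotides, against 7 over all 32817 distinct mouse windows. The hexamer TGCCGC, the core of the ZFP57 binding motif, was searched on both strands (GCGGCA on the other strand). It was in 13 of the 47 windows (27.7%), with both of the nearly identical Mest windows and the shared window of Snrpn and Snurf among them, and in 11.6% of all windows. The hexamer itself holds a CpG, and the part of CpG content in these shares was not tested. The windows are transcript starts and were not chosen as imprinting control regions. The left and right parts of the RE1 element bound by REST, TTCAGCACC and GGACAGCGC, were searched on both strands as exact letters. The left part was in 0 of the 47 windows and in 0.372% of all windows. The right part was in 1 of the 47, that of Peg12, and in 0.402% of all windows. The windows of 3 genes described below are shown because each holds more than 1 hexamer, which 1.53% of all windows do. They are Mest at chr6:30737800-30738099 on the plus strand, Zdbf2 at chr1:63200108-63200407 on the plus strand and Nap1l5 at chr6:58907077-58907376 on the minus strand, and capitals mark the hexamer on either strand. The Zdbf2 window lies upstream of the GENCODE start of the gene. A second Zdbf2 window, at chr1:63273019-63273318, holds that start, with 38 CpG and 0 hexamers.
Mest: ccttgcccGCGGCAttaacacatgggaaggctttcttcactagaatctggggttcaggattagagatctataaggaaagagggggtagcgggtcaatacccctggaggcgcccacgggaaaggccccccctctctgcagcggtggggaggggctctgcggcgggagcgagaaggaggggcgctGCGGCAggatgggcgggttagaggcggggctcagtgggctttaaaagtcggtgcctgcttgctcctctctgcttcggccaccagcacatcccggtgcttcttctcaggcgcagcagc
Zdbf2: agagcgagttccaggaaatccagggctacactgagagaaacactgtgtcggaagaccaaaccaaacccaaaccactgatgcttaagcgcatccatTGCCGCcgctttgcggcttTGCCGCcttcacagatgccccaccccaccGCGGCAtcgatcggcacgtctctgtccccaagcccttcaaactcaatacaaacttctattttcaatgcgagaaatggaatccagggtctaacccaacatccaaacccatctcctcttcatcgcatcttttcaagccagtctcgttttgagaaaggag
Nap1l5: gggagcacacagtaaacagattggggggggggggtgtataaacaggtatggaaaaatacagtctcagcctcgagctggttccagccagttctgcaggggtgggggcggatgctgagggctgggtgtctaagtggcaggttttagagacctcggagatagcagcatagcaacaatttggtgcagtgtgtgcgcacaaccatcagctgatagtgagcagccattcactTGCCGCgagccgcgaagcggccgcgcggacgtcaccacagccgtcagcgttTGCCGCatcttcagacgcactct
The Mest window held 2 hexamers and 17 CpG, the Zdbf2 window 3 hexamers and 15 CpG, and the Nap1l5 window 2 hexamers and 17 CpG. A match describes letters only, and no binding or methylation was measured.

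Levels of imprinted genes spanned several orders of magnitude in the neocortex. Per kilobase of merged exons and in the unstranded column, the most abundant was Inpp5f with 530.0 CPM (reads per 1e6 gene reads) per kb over the 6 libraries. It makes a phosphoinositide phosphatase of endosomes, and imprinting is known for only some of its brain transcripts. Peg12, a Frat-family inhibitor of GSK3, followed with 196 CPM per kb, then Nnat, the endoplasmic reticulum proteolipid neuronatin, with 124 CPM per kb. Impact, which restrains the eIF2 kinase GCN2, stood at 85.9 CPM per kb, the spliceosomal Sm protein gene Snrpn at 78.7 and the insulin receptor adaptor Grb10 at 67.3. At the low end of the tested genes were Zim1 at 0.211, Airn at 0.263 and Mirg at 0.277 CPM per kb. The summed level of all members but Inpp5f was 3502, 3750 and 3546 CPM in the Rest_het libraries, against 3612, 3255 and 3362 CPM in the WT libraries, and the groups overlapped. The order changed when the strand columns were summed, which adds reads in overlaps with the other strand. Nnat then stood at 237 CPM per kb, above Peg12 at 196, and Mest at 91.2, above Impact at 85.9, against 57.8 CPM per kb for Mest in the unstranded column.

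**Figure D1:**
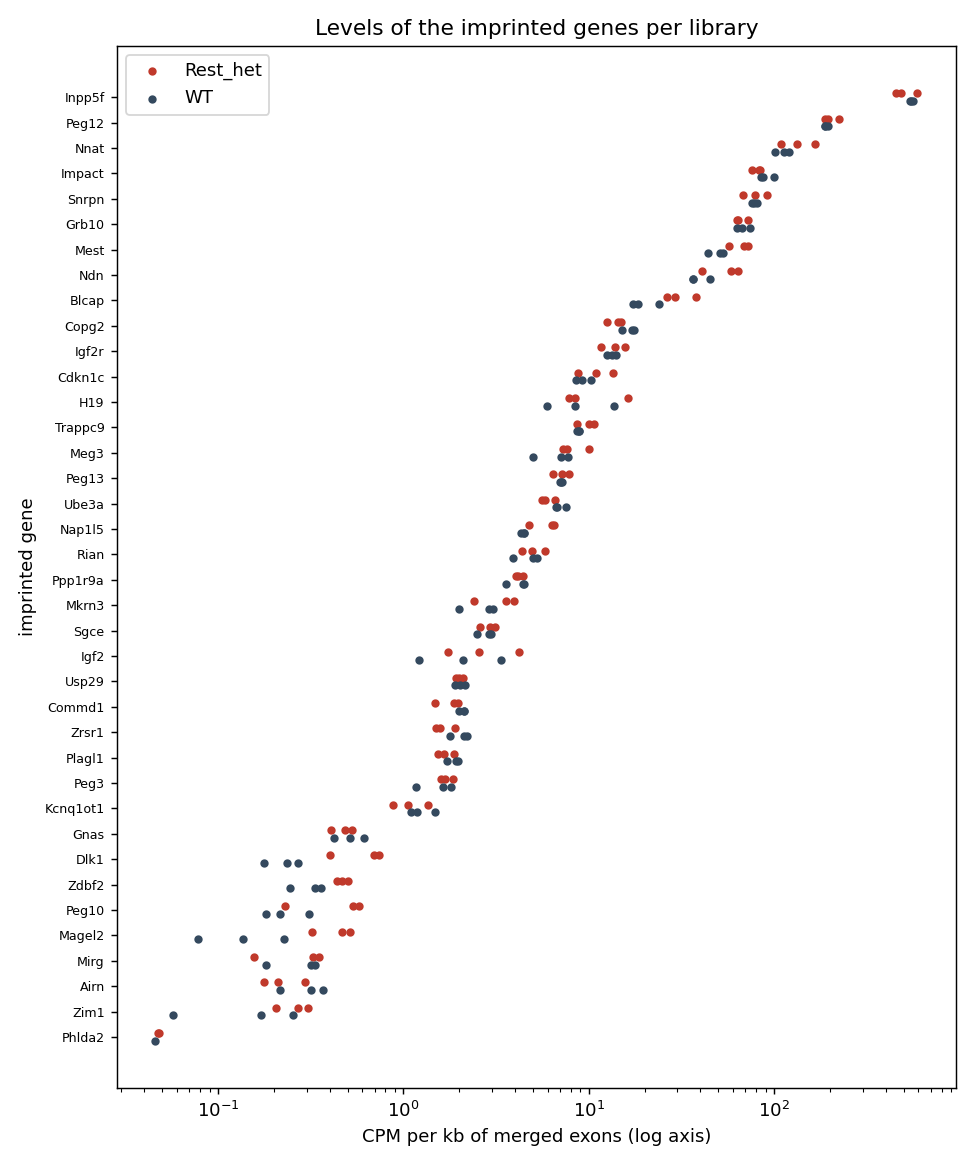
Level of each imprinted gene in CPM per kb of merged exons on a log axis, 1 point per library, Rest_het above WT in each row; values of 0 are not drawn and Snurf, at 0 in all libraries, is left out. Inpp5f leads at a mean of 530.0 CPM per kb, and the groups overlap for 27 of the 37 tested genes.

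No imprinted gene differed between the genotypes at an adjusted p under 0.05. By edgeR's quasi-likelihood test with adjustment over all 15385 genes that passed the filter, 0 of the 37 tested imprinted genes were called, while 0.123% of all tested genes were, and the smallest adjusted p of a member was 0.32. At an unadjusted p under 0.05, 8 members were higher and 2 lower in Rest_het, 21.6% and 5.41% of the tested members. Over all tested genes these shares were 6.98% and 4.72%. The members' counts moved with single libraries, to 5 higher and 0 lower without Rest_het replicate 1 or without WT replicate 2, 6 higher and 1 lower without Rest_het replicate 2 or without WT replicate 3, 8 higher and 0 lower without WT replicate 1, and 11 higher and 2 lower without Rest_het replicate 3. Groups did not overlap for 10 members, 6 of them higher in Rest_het, where 10.4% of all tested genes are, and 4 lower, where 8.94% of all are. The median log2 fold change of the members was 0.087, against 0.0054 over all tested genes, and 24 members lay above 0 and 13 below. DESeq2's Wald test called 2 members, Dlk1 and Blcap, where it called 0.822% of all genes it tested.

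Of the 8 members higher in Rest_het at an unadjusted p under 0.05, 7 are known as expressed mainly from the paternal copy. Allele labels here and below are general ones, and allele use was not measured in these libraries. Of 22 tested paternally expressed members, 7 were higher (31.8%) and 0 lower at an unadjusted p under 0.05. The median log2 fold change of the 22 was 0.12. Of 13 tested maternally expressed members, 1 was higher (7.69%) and 2 were lower (15.4%), with a median of 0.094. The shares of all tested genes were 6.98% higher and 4.72% lower. On summed strand columns the paternally expressed members again had 7 higher and 0 lower, with a median of 0.11, while the maternally expressed ones had 2 higher (Blcap and Cdkn1c) and 1 lower (Ube3a), with a median of 0.15. These counts were not compared by a test.

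**Figure D2:**
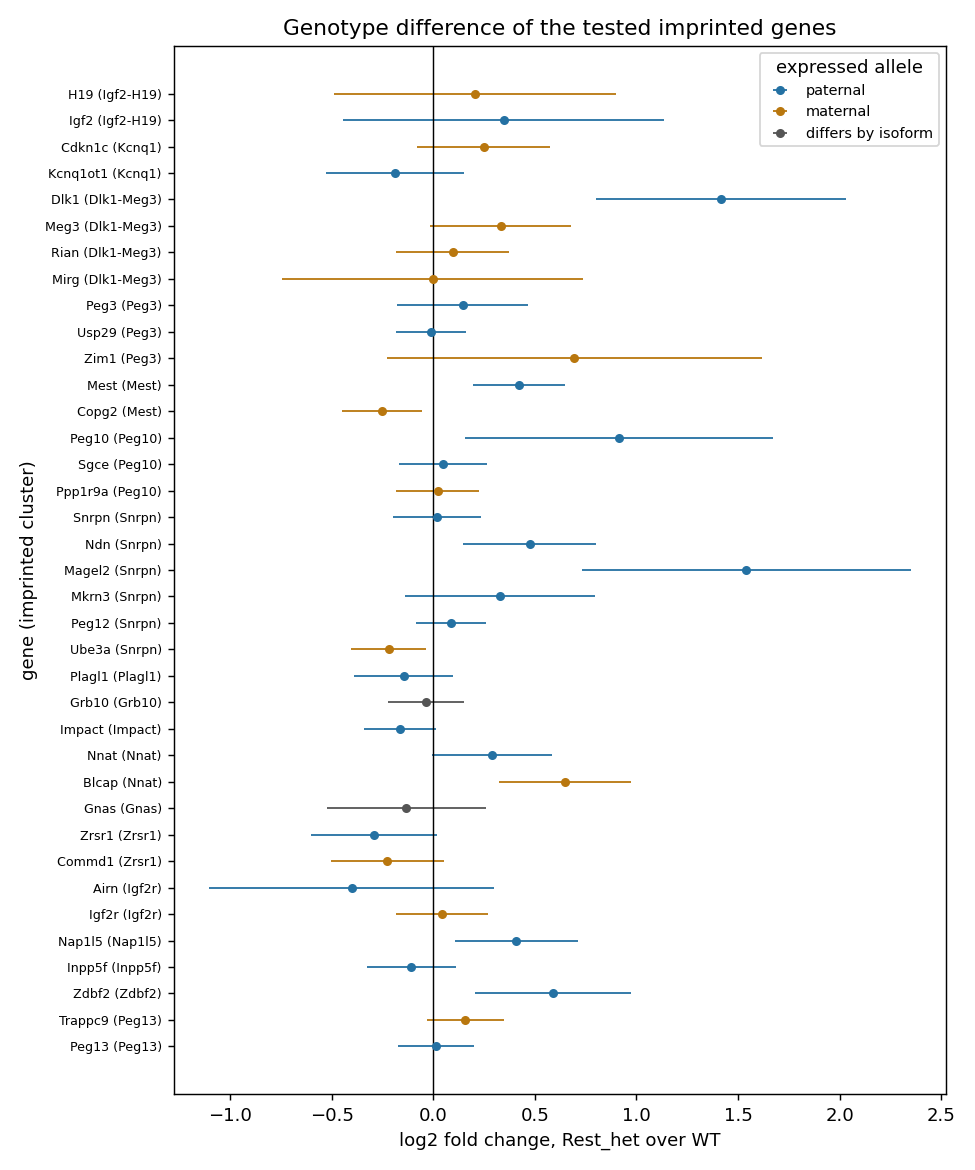
Log2 fold change, Rest_het over WT, of the 37 tested imprinted genes, coloured by the allele they are known to be expressed from. Bars are 95% intervals by a normal approximation, narrower than the test would give. Magel2 at 1.54 and Dlk1 at 1.41 lie farthest to the right, Airn at -0.40 lies farthest to the left with a bar that crosses 0.

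Growth regulators of the Igf2-H19 cluster on distal chromosome 7 differed more between embryos of 1 genotype than between the genotype means. Igf2 is the fetal growth factor known as expressed mainly from the paternal copy. It had 14.6, 9.97 and 24.1 CPM in the Rest_het libraries, against 19.3, 6.91 and 12.0 CPM in the WT libraries. H19, the maternally expressed noncoding RNA that shares enhancers with Igf2, had 19.1, 20.8 and 39.9 CPM in the Rest_het libraries, against 33.7, 14.6 and 20.9 CPM in the WT libraries. Both were highest in Rest_het replicate 3 and next in WT replicate 1, and the groups overlapped. Their log2 fold changes were 0.35 (SE 0.40) and 0.21 (SE 0.36), with edgeR adjusted p of 0.76 and 0.85. Summed markers of the meninges, a tissue that carries much Igf2 in the embryo, were 352, 188 and 529.7 CPM in the Rest_het libraries, against 492, 182 and 256 CPM in the WT libraries. The markers of the meninges (10 of 10 tested, 0 called) put the 6 libraries in the same order as Igf2 did, and their part in these values was not tested. In whole tissue, fewer cells of a type and less RNA per cell cannot be told apart.

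No tested growth regulator of the Kcnq1, Igf2r, Grb10 and Plagl1 clusters passed the test. Kcnq1ot1, the long antisense RNA that silences its neighbours on the paternal copy, had 98.3, 81.9 and 127 CPM in the Rest_het libraries, against 138, 103 and 109.9 CPM in the WT libraries. Cdkn1c, the cyclin-dependent kinase inhibitor p57, averaged 22.6 ± 4.98 CPM in Rest_het and 19 ± 1.91 CPM in WT (SD, n = 3 each), with a log2 fold change of 0.25 (SE 0.17), and edgeR's adjusted p was 0.57. Phlda2, a restraint of placental growth, gave 1, 0 and 1 reads in the Rest_het libraries, against 0, 0 and 1 reads in the WT libraries, and was not tested. The groups overlapped for Kcnq1ot1 and Cdkn1c. Igf2r, the receptor that clears IGF2, averaged 128 ± 19 CPM in Rest_het and 124 ± 7.17 CPM in WT (SD, n = 3 each). Its antisense partner Airn averaged 0.816 ± 0.214 CPM in Rest_het and 1.08 ± 0.279 CPM in WT (SD, n = 3 each). Grb10, which dampens insulin and IGF signalling, had 573, 579 and 660.1 CPM in the Rest_het libraries, against 673, 613 and 574 CPM in the WT libraries. Plagl1, a zinc finger activator of imprinted growth genes, had 12.9, 12.0 and 14.6 CPM in the Rest_het libraries, against 13.4, 15.4 and 14.9 CPM in the WT libraries. The groups overlapped for Igf2r, Airn, Grb10 and Plagl1 too, and none of the tested genes named here had an unadjusted p under 0.05 in the unstranded counts.

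Dlk1, a Notch-like transmembrane ligand expressed from the paternal copy, was the member with the smallest p. In GRCm38 it lies on chromosome 12 from 109452823 to 109463336, plus strand. It had 4.16, 3.93 and 2.28 CPM in the Rest_het libraries, against 1.53, 1.0 and 1.34 CPM in the WT libraries. Every Rest_het library was above every WT library. The means were 3.46 ± 1.02 CPM in Rest_het and 1.29 ± 0.267 CPM in WT (SD, n = 3 each), or 2.67-fold (95% interval 1.74 to 4.09) higher in Rest_het on the fitted scale, with an unadjusted p of 0.0019 and an edgeR adjusted p of 0.32. DESeq2 gave an adjusted p of 0.033, and over all alternatives it ran over 0.033 to 0.66. Its level was low, 0.420 CPM per kb.

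The maternally expressed RNAs of the same cluster were far more abundant than Dlk1. Meg3 had 132, 181 and 138 CPM in the Rest_het libraries, against 139, 91.0 and 128 CPM in the WT libraries, with 7.44 CPM per kb, an unadjusted p of 0.099 and overlapping groups. Rian, which carries small nucleolar RNAs, averaged 91.8 ± 13.1 CPM in Rest_het and 86.0 ± 12.7 CPM in WT (SD, n = 3 each). Mirg, which carries microRNAs, averaged 2.02 ± 0.773 CPM in Rest_het and 2.02 ± 0.614 CPM in WT (SD, n = 3 each). Dlk1 made up 1.42% of the cluster's summed CPM in Rest_het and 0.617% in WT, while Meg3 made up 60.6% in Rest_het and 57.0% in WT.

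Several members are hosts of microRNAs, whose mature forms were not measured by these polyA-primed libraries. RefSeq (GRCm38.p6) places 43 mature microRNAs of 23 hairpins within 7 members, 26 of them in Mirg and 6 in Rian. Their seeds (bases 2 to 8) are nearly all distinct, 42 for 43 sequences. The few shown are 1 from each of the most described hosts and the single pair that shares a seed, with the seed in capitals.
miR-675-5p (H19): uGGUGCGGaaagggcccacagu
miR-483-3p (Igf2): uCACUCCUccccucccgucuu
miR-335-5p (Mest): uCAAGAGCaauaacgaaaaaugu
miR-370-3p (Rian): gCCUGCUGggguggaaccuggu
miR-134-5p (Mirg): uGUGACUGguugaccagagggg
miR-453 (Mirg): aGGUUGCCucauagugagcuugca
miR-496a-5p (Mirg): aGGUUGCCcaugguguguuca
The pair with a shared seed is miR-453 and miR-496a-5p. Of the 23 rows of microRNA genes in the count files, 15 held 0 reads over the 6 libraries and the highest held 72.

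The cluster on central chromosome 7, the mouse counterpart of the region lost in human Prader-Willi and Angelman syndromes, gave values in both directions. Magel2, a MAGE protein of endosomal recycling, lies on chromosome 7 from 62377010 to 62381640, plus strand, and had 2.16, 2.38 and 1.49 CPM in the Rest_het libraries, against 1.05, 0.633 and 0.360 CPM in the WT libraries. The groups did not overlap, with Rest_het above WT. The means were 2.01 ± 0.466 CPM in Rest_het and 0.682 ± 0.348 CPM in WT (SD, n = 3 each), 2.91-fold (95% interval 1.66 to 5.10) higher, with an unadjusted p of 0.0056 and an edgeR adjusted p of 0.33. Ndn, the related growth-restraining protein necdin, had 217, 236 and 151 CPM in the Rest_het libraries, against 134, 134 and 166 CPM in the WT libraries. Rest_het replicates 1 and 2 were above all WT libraries and Rest_het replicate 3 was between them, so the groups overlapped. The log2 fold change of Ndn was 0.47 (SE 0.17), and edgeR's adjusted p was 0.37.

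The other genes of that cluster gave smaller fold changes. Mkrn3, a ubiquitin ligase known as a brake on puberty, averaged 8.43 ± 2.08 CPM in Rest_het and 6.72 ± 1.45 CPM in WT (SD, n = 3 each). Peg12 had 516, 592 and 495 CPM in the Rest_het libraries, against 499, 512 and 497 CPM in the WT libraries, and Snrpn averaged 171 ± 25.1 CPM in Rest_het and 169 ± 5.36 CPM in WT (SD, n = 3 each). Groups overlapped for Mkrn3, Peg12 and Snrpn. Ube3a, the ubiquitin ligase whose maternal copy is lost in Angelman syndrome, had 119.9, 115 and 135 CPM in the Rest_het libraries, against 156, 137 and 139 CPM in the WT libraries. All Rest_het libraries lay below all WT libraries, with a log2 fold change of -0.22 (SE 0.094), an unadjusted p of 0.046 and an edgeR adjusted p of 0.42. Snurf was at 0 reads in all 6 libraries. All 216 of its exon bases in GENCODE M21 lie in Snrpn on the same strand, so its count of 0 sets no limit on its level.

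Mest and Copg2, which meet tail to tail on chromosome 6, gave opposite values. Mest, an enzyme-like protein of the alpha/beta hydrolase fold expressed from the paternal copy, lies on chromosome 6 from 30723547 to 30748465, plus strand, and its promoter is among the sequences above. It had 286, 224 and 273 CPM in the Rest_het libraries, against 202, 174 and 209 CPM in the WT libraries. Every Rest_het library was above every WT library, 1.34-fold (95% interval 1.14 to 1.56) higher, with an unadjusted p of 0.0064 and an edgeR adjusted p of 0.33. Copg2, a gamma subunit of the COPI coat, had 73.5, 64.5 and 76.8 CPM in the Rest_het libraries, against 88.1, 90.2 and 77.5 CPM in the WT libraries. The groups did not overlap and Rest_het was below WT, with a log2 fold change of -0.25 (SE 0.10), and edgeR's adjusted p was 0.41.

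The values of Copg2 depended on how overlapping reads were counted. Mest and Copg2 share 912 exon bases on opposite strands, and reads there were left out of both genes in the unstranded column. When the strand columns were summed, which gives such reads to both genes, Copg2 had 232, 193 and 239 CPM in the Rest_het libraries, against 205, 191 and 201 CPM in the WT libraries. Its log2 fold change was then 0.15 (SE 0.099), and edgeR's adjusted p was 0.55, the opposite direction. Mest gave 0.41 (SE 0.12) by the same sum, against 0.42 in the unstranded column. Reads in the overlap cannot be assigned to either gene.

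**Figure D3:**
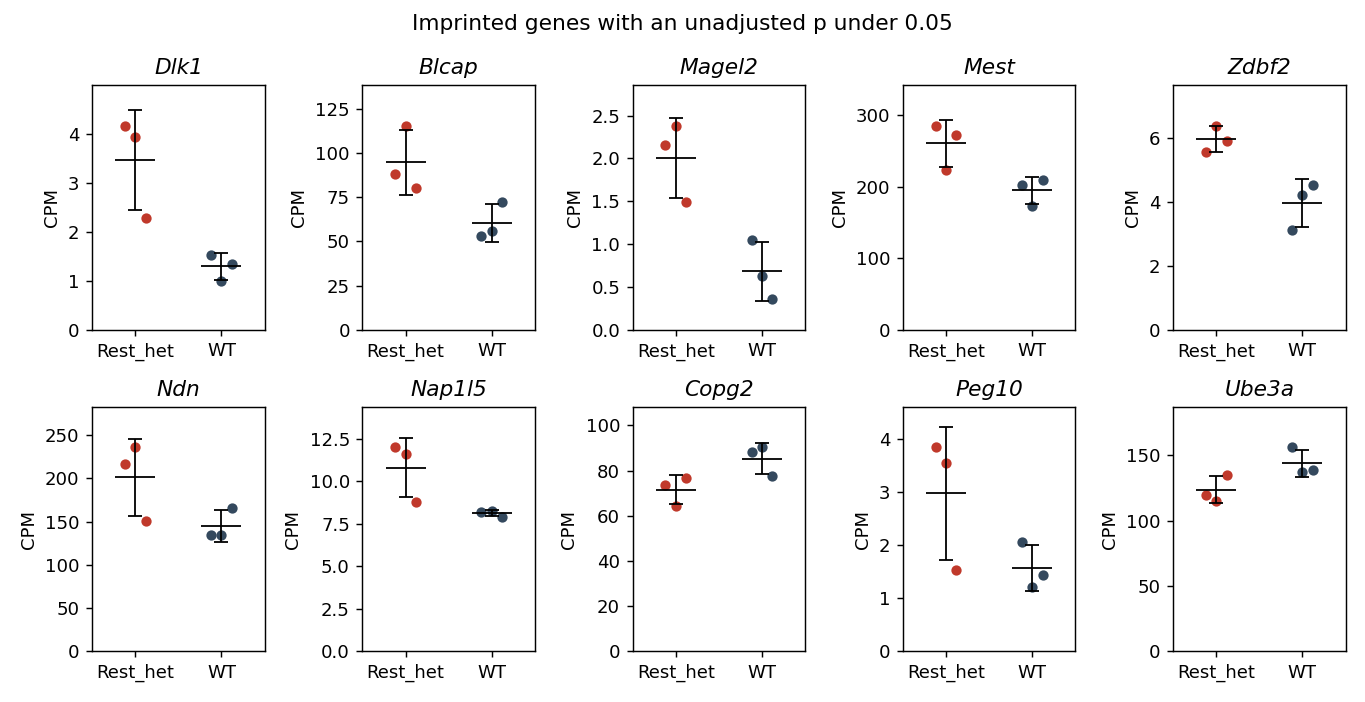
CPM per library of the 10 imprinted genes with an unadjusted p under 0.05, with mean and SD (n = 3 each) as black marks. Rest_het lies wholly above WT for Dlk1, Blcap, Magel2, Mest, Zdbf2 and Nap1l5 and wholly below it for Copg2 and Ube3a, and the groups overlap for Ndn and Peg10.

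Retrotransposon-derived and zinc finger members at the Peg10 and Peg3 clusters gave 1 member with an unadjusted p under 0.05. Peg10, a Gag-Pol-like protein needed in the placenta, had 3.84, 3.55 and 1.54 CPM in the Rest_het libraries, against 2.06, 1.21 and 1.44 CPM in the WT libraries. Rest_het replicates 1 and 2 were above all WT libraries and Rest_het replicate 3 was within them. Its log2 fold change was 0.91 (SE 0.39), with an unadjusted p of 0.046 and an edgeR adjusted p of 0.42. Its neighbour Sgce, the sarcoglycan mutated in myoclonus dystonia, averaged 30.6 ± 2.90 CPM in Rest_het and 29.6 ± 2.75 CPM in WT (SD, n = 3 each). Ppp1r9a, the actin-binding neurabin, had 58.9, 60.3 and 64.1 CPM in the Rest_het libraries, against 64.6, 52.1 and 63.9 CPM in the WT libraries. Groups overlapped for Sgce and Ppp1r9a. In the Peg3 cluster, Usp29, a deubiquitinase relative, had 38.1, 36.0 and 34.7 CPM in the Rest_het libraries, against 38.9, 36.3 and 34.3 CPM in the WT libraries. The zinc finger gene Peg3 averaged 22.6 ± 1.75 CPM in Rest_het and 20.5 ± 4.47 CPM in WT (SD, n = 3 each). Zim1, another zinc finger gene, averaged 2.11 ± 0.416 CPM in Rest_het and 1.30 ± 0.798 CPM in WT (SD, n = 3 each). Groups overlapped for Usp29, Peg3 and Zim1, with edgeR adjusted p of 0.98 for Usp29, 0.75 for Peg3 and 0.57 for Zim1.

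Blcap, a small protein gene that contains Nnat in its intron and is known for maternal bias of a brain transcript, lies on chromosome 2 from 157556362 to 157571274, minus strand. It had 88.3, 116 and 80.4 CPM in the Rest_het libraries, against 53.0, 55.9 and 72.6 CPM in the WT libraries. All Rest_het libraries lay above all WT libraries, 1.57-fold (95% interval 1.25 to 1.96) higher, with an unadjusted p of 0.0045 and an edgeR adjusted p of 0.32. DESeq2 gave an adjusted p of 0.041, and over all alternatives it ran over 0.041 to 0.66. Nnat had 243, 305 and 199 CPM in the Rest_het libraries, against 219, 186 and 208 CPM in the WT libraries, with a log2 fold change of 0.29 (SE 0.15) and overlapping groups.

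Among single-gene clusters, Zdbf2 and Nap1l5 were above WT in every Rest_het library. Zdbf2, a zinc finger gene expressed from the paternal copy and known for postnatal feeding in the mouse, lies on chromosome 1 from 63273265 to 63314576, plus strand. It had 5.57, 6.37 and 5.90 CPM in the Rest_het libraries, against 3.11, 4.22 and 4.53 CPM in the WT libraries. Every Rest_het library was above every WT library, 1.5-fold (95% interval 1.15 to 1.97) higher, with an unadjusted p of 0.017 and an edgeR adjusted p of 0.36. Chromosome 1 holds 9 of the 19 called genes of the whole comparison, and the nearest of them, Gm37100, lies 4.80 Mb from Zdbf2. The other called genes lie on chromosome 5, which holds Rest, with 6, and on chromosome 8, with 4. Why the calls fall on so few chromosomes was not tested. Nap1l5, a nucleosome assembly protein relative inside Herc3, lies on chromosome 6 from 58905233 to 58907076, minus strand. It had 12.0, 11.6 and 8.82 CPM in the Rest_het libraries, against 8.22, 8.28 and 7.93 CPM in the WT libraries. The groups did not overlap and Rest_het was above WT, 1.33-fold (95% interval 1.08 to 1.64) higher, with an edgeR adjusted p of 0.40.

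The remaining members gave small differences. Inpp5f had 4031, 4935 and 3771 CPM in the Rest_het libraries, against 4652, 4523 and 4553 CPM in the WT libraries. Rest_het replicate 2 was highest and Rest_het replicates 3 and 1 lowest, so the groups overlapped, and the log2 fold change was -0.11 (SE 0.11). Impact had 391.6, 423 and 430.5 CPM in the Rest_het libraries, against 515, 448 and 434 CPM in the WT libraries. All Rest_het libraries lay below all WT libraries, with a log2 fold change of -0.17 (SE 0.091), an unadjusted p of 0.10 and an edgeR adjusted p of 0.50. Commd1, a copper and NF-kB regulator, had 11.2, 8.81 and 11.7 CPM in the Rest_het libraries, against 12.7, 11.9 and 12.6 CPM in the WT libraries. These groups did not overlap either, with a log2 fold change of -0.23 (SE 0.14), and edgeR's adjusted p was 0.54. Zrsr1, a splicing factor gene inside Commd1, averaged 7.45 ± 0.963 CPM in Rest_het and 9.14 ± 0.971 CPM in WT (SD, n = 3 each). Trappc9, a vesicle-tethering subunit, had 85.1, 79.4 and 68.4 CPM in the Rest_het libraries, against 68.2, 70.6 and 70.1 CPM in the WT libraries, and the noncoding Peg13 inside it averaged 33.8 ± 3.32 CPM in Rest_het and 33.5 ± 0.233 CPM in WT (SD, n = 3 each). Groups overlapped for Zrsr1, Trappc9 and Peg13.

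Annotated sense-antisense pairs hid part of the reads of 10 of the 37 tested members, 27.0% of them, against 13.9% of all tested genes. The measure was a strand sum more than 1.1 times the unstranded count. Gnas, the gene of the stimulatory G protein alpha subunit, lost the most. It had 637 reads over the 6 libraries in the unstranded column and 14842 in the strand sum, so 95.7% of the reads on its exons were left out. Its exons overlap Gm20721 by 1469 bases and Nespas by 988 bases on the other strand. In the unstranded column Gnas had 4.54, 5.87 and 5.42 CPM in the Rest_het libraries, against 6.88, 4.69 and 5.77 CPM in the WT libraries, with a log2 fold change of -0.13 (SE 0.20). By the strand sum it had 141, 141 and 132 CPM in the Rest_het libraries, against 126, 113 and 125 CPM in the WT libraries, with 0.18 (SE 0.080), and edgeR's adjusted p was 0.42. The groups overlapped in the unstranded column and did not in the strand sum, and the direction turned with the counting. In the unstranded column, which leaves out the overlaps, Gm20721 had 3 reads and Nespas 66 over the 6 libraries. The libraries hold no strand, so the strand of reads in the overlaps was not measured.

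The other members in such pairs kept their direction apart from Copg2. The share left out was 62.6% for Copg2, 47.8% for Nnat, 36.7% for Mest, 28.4% for Cdkn1c and 22.2% for Ube3a, and lower for Zrsr1, Commd1, Usp29 and H19. The annotated partners in exons of Nnat (Gm23134) and Cdkn1c (Gm44732) had 0 reads in the unstranded column. Mest and Copg2, partners of each other, had 26057 and 9027. Cdkn1c gave a log2 fold change of 0.38 (SE 0.14) by the strand sum, with an unadjusted p of 0.030 and an edgeR adjusted p of 0.39. On summed strands 0 members were called, where 0.128% of all tested genes were, with 9 members higher and 1 lower (Ube3a) at an unadjusted p under 0.05.

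**Figure D4:**
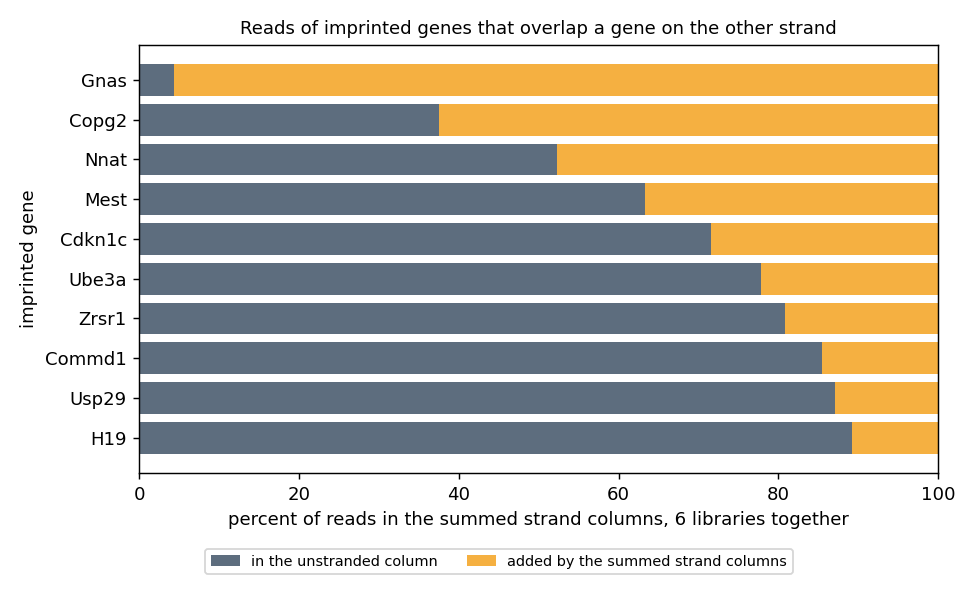
Reads of the 10 imprinted genes with the largest share in overlaps with the other strand, as percent of the summed strand columns over 6 libraries. The orange part was left out of the unstranded column, from 95.7% for Gnas to 10.8% for H19.

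Markers of tissue outside the neocortex moved with some of these values. Of 9 markers of thalamus and hypothalamus, 5 passed the filter, and 4 of them were higher in Rest_het at an unadjusted p under 0.05, with 0 called. The sum over the list was 257, 142 and 206 CPM in the Rest_het libraries, against 232, 138 and 157 CPM in the WT libraries, and the groups overlapped. Those 4 were Lhx9, Barhl2, Calb2 and Prox1, and the other tested marker, Tcf7l2, had 211, 92.6 and 179 CPM in the Rest_het libraries, against 214, 117 and 139 CPM in the WT libraries. Lhx9, a thalamic transcription factor, had 10.9, 14.4 and 6.16 CPM in the Rest_het libraries, against 5.64, 5.38 and 4.17 CPM in the WT libraries. Barhl2, a diencephalic homeobox gene, had 2.70, 10.9 and 4.09 CPM in the Rest_het libraries, against 2.15, 1.11 and 1.65 CPM in the WT libraries. Every Rest_het library was above every WT library for both, while their order among the Rest_het libraries differed. Nkx2-1, which marks hypothalamus and ventral forebrain and was under the filter, had 2.92, 1.83 and 0.372 CPM in the Rest_het libraries, against 0.0956, 0.316 and 0.103 CPM in the WT libraries. It was highest in Rest_het replicates 1 and 2, the libraries highest in Dlk1, Magel2, Ndn and Peg10, and the list sum and Tcf7l2 were lowest of the Rest_het libraries in replicate 2. The 8 markers of choroid plexus (6 tested, 3 higher at an unadjusted p under 0.05, 0 called) summed to 182, 9.25 and 381 CPM in the Rest_het libraries, against 59.9, 3.90 and 5.46 CPM in the WT libraries. The 8 markers of mural cells (8 tested, 1 higher, 0 called) summed to 1489.8, 1199 and 263 CPM in the Rest_het libraries, against 287, 189 and 229 CPM in the WT libraries. Most of that sum was Rgs5, which had 1432, 1161 and 196 CPM in the Rest_het libraries, against 216, 152 and 181 CPM in the WT libraries. The other 7 mural markers summed to 57.7, 38.2 and 66.7 CPM in the Rest_het libraries, against 70.6, 37.0 and 48.5 CPM in the WT libraries. The sums of choroid plexus and of mural cells, with and without Rgs5, overlapped between the groups. Summed markers of endothelium, erythroid cells, microglia and ventral telencephalon overlapped between the groups as well, and no marker of any list was at 0 in all 6 libraries. The part of these tissues in the values of the imprinted genes was not tested.

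**Figure D5:**
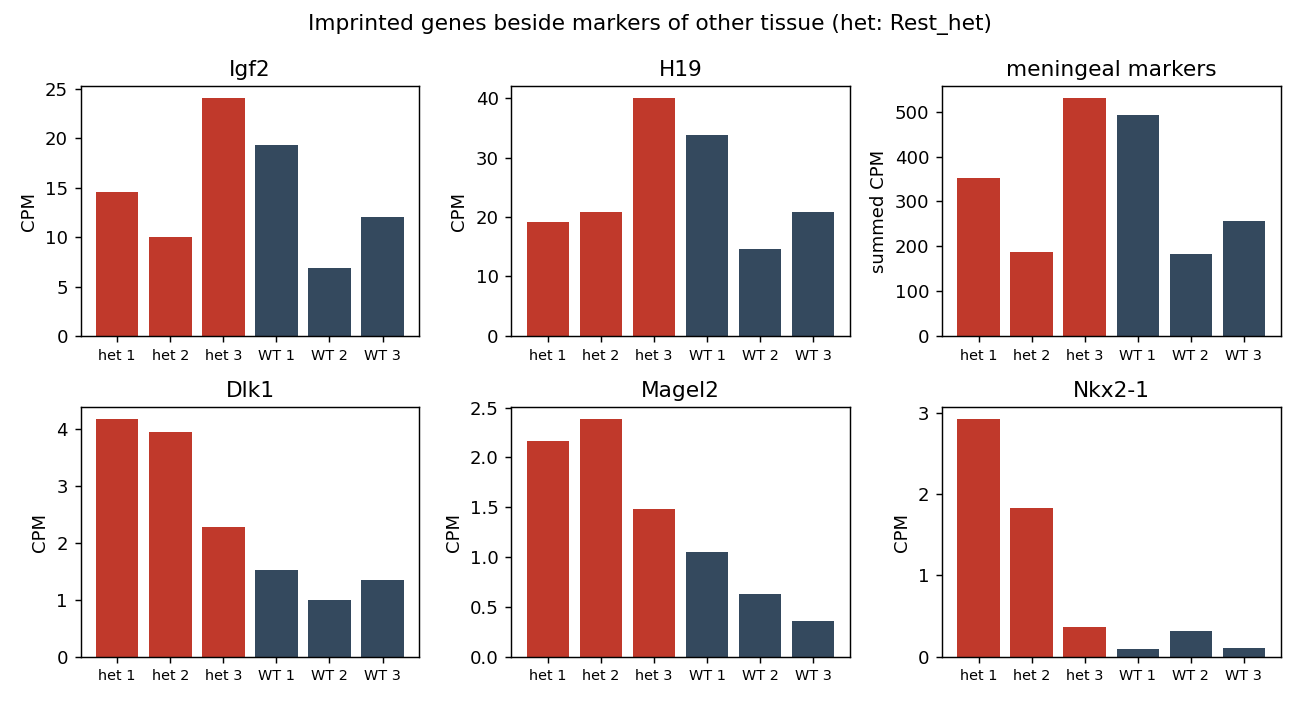
Level per library of Igf2, H19, Dlk1 and Magel2 beside the summed meningeal markers and Nkx2-1, in CPM. Igf2 and the meningeal sum are highest in Rest_het replicate 3 and WT replicate 1. Dlk1, Magel2 and Nkx2-1 are highest in Rest_het replicates 1 and 2. Nkx2-1 was under the filter and is 1 of 9 markers of thalamus and hypothalamus. Of the tested ones, Lhx9, Calb2 and Prox1 were highest in the same libraries, but Barhl2 in Rest_het replicates 2 and 3. Tcf7l2 and the list sum were lowest of the Rest_het libraries in replicate 2. The ventral telencephalon sum, which also holds Nkx2-1, was lowest of them in replicate 1.

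Genes outside the 39 that stand on general lists of imprinted genes gave no call by edgeR. Whether each is imprinted in the neocortex was not measured. Of 50 such genes, 33 passed the filter and 0 were called by edgeR, where 0.123% of all tested genes were. At an unadjusted p under 0.05 by edgeR, 7 were higher and 1 (Htr2a, a serotonin receptor gene) was lower. These are 21.2% and 3.03% of the 33, against 6.98% and 4.72% of all tested genes. Groups did not overlap for 9 higher (27.3%) and 2 lower (6.06%), against 10.4% and 8.94% of all. The median log2 fold change of the 33 was 0.23. DESeq2 called 1, Cobl, where it called 0.822% of all genes it tested. The smallest p belonged to Cobl, an actin nucleator in the Grb10 cluster, which had 2.43, 2.22 and 1.91 CPM in the Rest_het libraries, against 1.0, 0.527 and 0.309 CPM in the WT libraries (edgeR adjusted p 0.32). Tssc4, in the Kcnq1 cluster, had 56.2, 55.4 and 51.6 CPM in the Rest_het libraries, against 41.8, 40.5 and 45.4 CPM in the WT libraries. The tetraspanin gene Cd81, in the same cluster, had 304, 301 and 349 CPM in the Rest_het libraries, against 240.4, 209 and 258 CPM in the WT libraries. Adam23, a brain membrane protein gene on chromosome 1, had 19.3, 21.9 and 18.6 CPM in the Rest_het libraries, against 15.1, 12.4 and 14.4 CPM in the WT libraries. These 4 were picked for the smallest p of the list. In all 4 every Rest_het library lay above every WT library, and the edgeR adjusted p of Tssc4, Cd81 and Adam23 was 0.32 each.

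No factor that sets or keeps imprints passed the test. Of 26, 24 passed the filter and 0 were called. At an unadjusted p under 0.05 by edgeR, 1 was higher (4.17%) and 0 lower, against 6.98% and 4.72% of all tested genes. The median log2 fold change of the 24 was -0.079. Ctcf, the insulator protein that binds the unmethylated Igf2-H19 control region, had 64.4, 63.3 and 64.0 CPM in the Rest_het libraries, against 38.8, 46.4 and 59.4 CPM in the WT libraries. Every Rest_het library was above every WT library, with a log2 fold change of 0.41 (SE 0.15), and edgeR's adjusted p was 0.37. The corepressor Trim28, the heterochromatin protein gene Cbx5 and the 5-methylcytosine dioxygenase Tet2 followed in order of p. Their log2 fold changes were 0.31 (SE 0.14), -0.23 (SE 0.11) and -0.19 (SE 0.095), with edgeR adjusted p of 0.45, 0.46 and 0.47.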

How the data were processed

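Per the labels' protocols, neocortex cDNA was primed with oligo dT, amplified and tagmented without strand marks or molecular identifiers, so PCR copies are counted as reads. Intervals rest on the spread between libraries. The submitters' processing notes name STAR 2.5.2a and GRCm38.p4 for the deposited files, which give raw read counts by gene. A deposited table of normalized signal (counts divided by DESeq2 size factors, whose version is not given in the sources used here) served as an alternative. Summary rows were left out of totals: 21.4 to 26.9% of read pairs had no feature and 2.54 to 2.85% were ambiguous.

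The main test was edgeR 4.0.16 in R 4.3.3 (quasi-likelihood, TMM, genotype only) on the unstranded column of 15385 genes that passed filterByExpr (minimum count 10, minimum total 15). Called genes had a p under 0.05 after Benjamini-Hochberg adjustment over all of them. Intervals (95%) use a normal approximation from the SE, which makes them narrower than the quasi-likelihood test would give with so few libraries. An interval can leave out no change where the test's unadjusted p is above 0.05. CPM is TMM-scaled, and SD is over 3 libraries. The biological coefficient of variation was 0.183. On simulated counts the test recovered 20% of genes changed 1.5-fold and 76% of those changed 2-fold, run on 15116 genes. The simulated spread followed the trend over all genes, without the extra spread of single genes or libraries. Recovery in the real libraries can be lower. Levels per kb and overlaps used GENCODE M21 exons on GRCm38, and the release the authors counted on is not given in the sources used here.

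Alternatives were DESeq2 1.42.0, limma 3.58.1, other scalings and filters, the replicate block, Xist as a covariate, summed strand columns and leaving out each library. Members and lists were chosen with earlier results of these data known. Values in every library are given for members with an unadjusted p under 0.05 or groups that do not overlap and for the most abundant member of each cluster by CPM, and of the imprinted and imprint-maintenance lists up to 4 genes by p are named. The labels do not say whether the replicate numbers in the titles pair the libraries. Same-numbered deviations correlated at 0.011, 0.037 and -0.14. Rest_het replicate 1 was closest to WT replicate 1, and replicates 2 and 3 were not closest to their own number. With so few libraries, these values cannot show whether embryos shared a litter or batch.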

Additional observations from a re-analysis of the deposited data

Results flagged for a closer look

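Signals outside the gene counts separated the genotypes. Reads on the LacZ sequence summed to 0 in Rest_het and to 121 in WT, and reads on the CRE-ERT2 sequence summed to 43 in Rest_het and to 0 in WT. The labels of these samples name neither sequence, and whether the embryos carried these transgenes was not tested. The part of any such transgene in the values of the imprinted genes cannot be told apart from that of the Rest allele.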

How the results depend on the processing

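The count of called genes over all genes was 131 by DESeq2, 107 with no filter on low counts, 6 with the replicate block and 12 to 35 when 1 library was left out (32 without Rest_het replicate 3, 12 without WT replicate 1, 35 without WT replicate 2), against 19. Called members numbered 2 by DESeq2 (Dlk1 and Blcap), 1 with no filter (Blcap) and 0 with the replicate block and in the other settings. DESeq2 called 1 of the other imprinted genes. Whether the replicate numbers pair the libraries is not known, so the block may or may not be a paired test. Without the members in sense-antisense overlaps, an alternative chosen after seeing the data, 0 of 27 were called and the median log2 fold change was 0.094. The median of all tested members ran over 0.011 to 0.15 when 1 library was left out, lowest without WT replicate 2. Of 629 values of members under alternatives, 600 kept direction and side of the threshold, 26 turned and 3 passed the threshold, and 23 members never turned. Summed strand columns turned Copg2 to 0.15 and Gnas to 0.18, Xist as a covariate turned Mirg to 0.034, and upper-quartile factors turned Snrpn to -0.00049 and Peg13 to -0.0040. The cause was not tested beyond the overlaps given above. Leaving out 1 library gave log2 fold changes of -0.21 to 0.59 for H19, -0.051 to 0.78 for Igf2, -0.022 to 0.19 for Rian, -0.23 to 0.28 for Mirg, -0.020 to 0.28 for Peg3, -0.053 to 0.038 for Usp29, -0.027 to 0.12 for Sgce, -0.073 to 0.075 for Ppp1r9a, -0.090 to 0.12 for Snrpn, -0.10 to 0.025 for Grb10, -0.26 to 0.012 for Gnas, -0.062 to 0.15 for Igf2r and -0.058 to 0.090 for Peg13. Dlk1, Blcap, Magel2, Mest and Zdbf2 had an unadjusted p under 0.05 in all 6 such fits, and Ndn, Nap1l5, Copg2, Peg10 and Ube3a in 1 or 2 of them. With 3 libraries per group, differences under about 1.5-fold are mostly not detectable, and larger ones can be missed too. The edgeR adjusted p was 0.32 for Dlk1 at 2.67-fold and 0.33 for Magel2 at 2.91-fold.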
